A study of Mus musculus with 14 samples.

Results

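The complement genes examined here were C1qa, C1qb, C1qc, C3, C4b, C3ar1, Itgam and Serping1, 8 of the 56748 genes counted in mouse brain at postnatal day 23 (P23). They were taken by gene name, with earlier results of these data known. Their read counts were compared between 7 mice homozygous for a spontaneous null allele of 2310061I04Rik (Rik null) and 7 wild-type (WT) littermates on a C57BL6/J background. The allele is a short deletion in the first intron of Rik that arose in a single embryonic stem cell clone, and in the Rik null line the floxed Traf7 allele with which it arose had been replaced by an intact Traf7. The Rik null group held 4 females and 3 males, and the WT group 3 females and 4 males. Each library came from 1 sagittal side of a brain of 1 animal. According to the study, homozygotes are runted and ataxic and die soon after this age, so loss of Rik and illness near death cannot be told apart in these groups.

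Complement is a cascade of secreted proteins that tag surfaces for removal by phagocytes. In the classical pathway, C1q binds a surface and activates the proteases C1r and C1s, which cleave C4 and C2, and the enzyme so formed cleaves C3, whose fragments are read by receptors on microglia and other myeloid cells. In brain, C1q is made mainly by microglia, C4b by glia, and C1q and C3 are known for tagging synapses during development.

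The libraries held between 14.7 and 17.9 M counts. Rik itself, on chromosome 17, matched the genotype labels in all 14 libraries, with 1.03 to 3.37 CPM (counts scaled to library size) in Rik null brain and 30.3 to 40.9 CPM in WT brain. Neuron markers summed to between 5908 and 6927 CPM in every library, so markers of the labelled tissue were present, whereas no neutrophil or monocyte marker passed the count filter, their sum was at most 18.2 CPM and Ly6g was at 0. Mitochondrial genes took 3.62 to 4.52% of counts in Rik null libraries and 5.77 to 7.87% in WT libraries. Rik null replicate 1 and WT replicate 6 were the extremes of a score of 73 cytosolic ribosomal protein genes that also ran with the C1q genes.

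All 8 complement genes passed the count filter. At an adjusted p of 0.05, C4b, C3ar1 and Serping1 were higher in Rik null brain, Itgam was lower, and C1qa, C1qb, C1qc and C3 did not pass. Over all 16882 genes tested, 16.5% were called higher and 17.9% lower, so 4 of the 8 complement genes passed, beside 34.4% of all genes. Scaled by library size alone, 3890 genes were higher and 2208 lower in place of 2783 and 3027, with 3 of the 8 higher and 1 lower as before. With a further requirement of a 2-fold change, C3ar1 was called higher and Itgam lower, where 1.91% and 1.62% of all genes were (3.54% in either direction). The median log2 fold change of the 8 genes was 0.14, beside -0.0005 over all tested genes. Unless another test is named, each adjusted p comes from the quasi-likelihood test of edgeR, with the Benjamini-Hochberg method over all tested genes, and log2 fold changes are Rik null against WT.

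**Figure D1:**
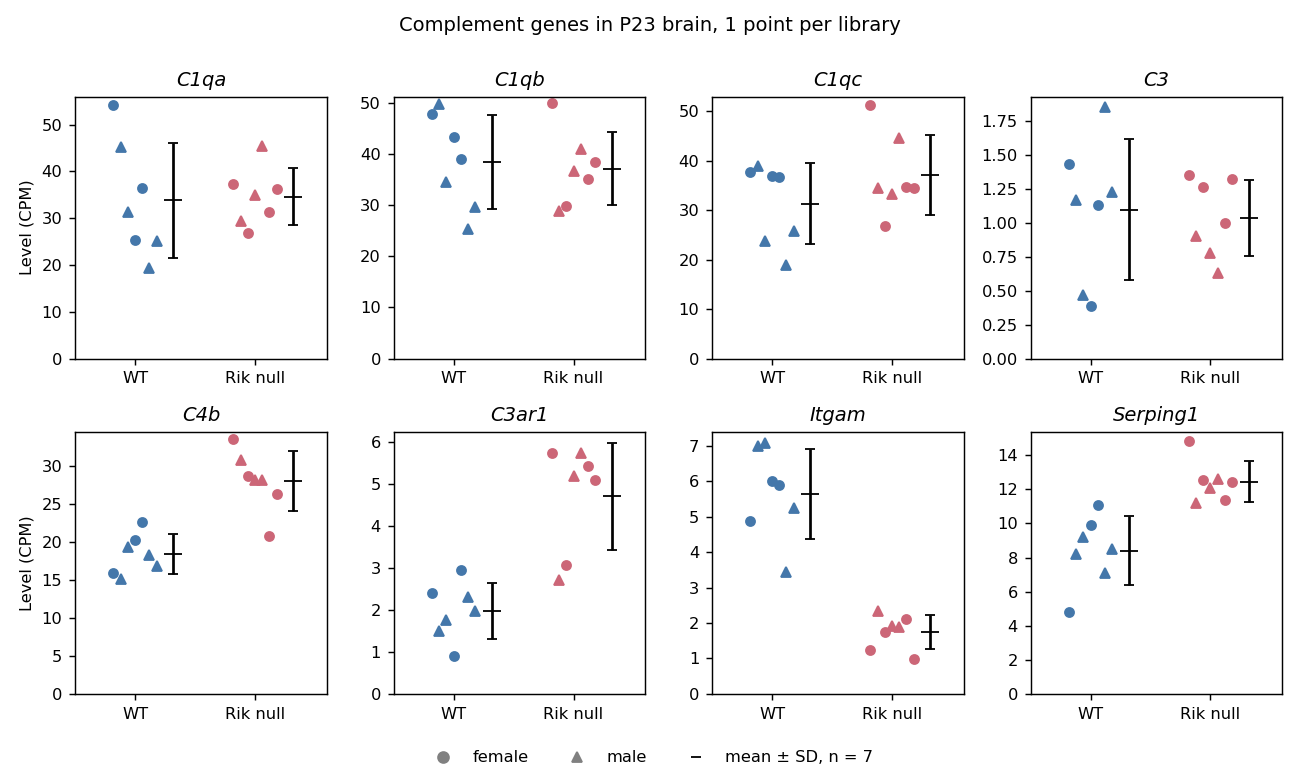
CPM of the 8 complement genes in each of the 14 libraries, with WT in blue and Rik null in red, circles for females and triangles for males, and bars for the mean and SD of 7 libraries. The genotypes overlap for the 3 C1q genes and C3, the Rik null libraries lie mostly above WT for C4b, C3ar1 and Serping1, and all Rik null libraries lie below all WT libraries for Itgam.

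Per length, the C1q genes were the most abundant of the set in either genotype. In WT brain the order by median FPKM, fragments scaled by gene length and library size, was C1qb (35.6), C1qa (29.6) and C1qc (18.9), then Serping1 (3.63) and C4b (3.17), then Itgam (1.16), C3ar1 (0.454) and C3 (0.223). The ranges of neighbours in this order overlapped except between C1qc and Serping1 and between C4b and Itgam. In Rik null brain the first 5 places were the same, but C3ar1 (1.20 FPKM) stood above Itgam (0.373 FPKM) with no overlap, and Itgam and C3 (0.193 FPKM) overlapped.

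The promoters of the genes that the results turn on are shown first, since C1qb and C1qc both varied with the ribosomal score between libraries while the myeloid receptor genes C3ar1 and Itgam moved in opposite directions. Windows from 250 bases before to 50 after the RefSeq start (GRCm38.p6) were found for 5 of the 8 genes. For C1qc the start of the gene position given below, 136893065, lies inside the window, upstream of the RefSeq start. The motif searched was GAGGAA on both strands, the core bound by the myeloid factor PU.1, and capitals mark it or its reverse complement. Each line runs 5′ to 3′ on the strand of the gene. C1qb is at chr4:136886151-136886450 (minus strand), C1qc at chr4:136892865-136893164 (minus strand), C3ar1 at chr6:122856108-122856407 (minus strand) and Itgam at chr7:128062390-128062689 (plus strand).
C1qb: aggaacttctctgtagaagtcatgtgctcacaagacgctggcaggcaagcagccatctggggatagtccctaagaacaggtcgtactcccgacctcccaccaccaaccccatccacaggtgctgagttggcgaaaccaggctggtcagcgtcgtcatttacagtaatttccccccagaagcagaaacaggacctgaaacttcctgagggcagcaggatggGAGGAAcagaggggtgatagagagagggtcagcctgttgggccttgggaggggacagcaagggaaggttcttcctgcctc
C1qc: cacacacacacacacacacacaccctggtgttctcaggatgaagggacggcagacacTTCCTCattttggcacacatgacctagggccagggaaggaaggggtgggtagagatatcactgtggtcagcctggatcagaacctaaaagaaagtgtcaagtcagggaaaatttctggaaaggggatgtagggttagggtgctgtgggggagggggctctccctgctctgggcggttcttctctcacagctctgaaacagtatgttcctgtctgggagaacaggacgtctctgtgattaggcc
C3ar1: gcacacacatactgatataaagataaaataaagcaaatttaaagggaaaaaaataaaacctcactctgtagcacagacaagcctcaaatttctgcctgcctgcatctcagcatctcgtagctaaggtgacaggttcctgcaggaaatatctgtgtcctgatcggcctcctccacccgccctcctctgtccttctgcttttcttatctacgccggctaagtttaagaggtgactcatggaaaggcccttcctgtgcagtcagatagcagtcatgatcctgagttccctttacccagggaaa
Itgam: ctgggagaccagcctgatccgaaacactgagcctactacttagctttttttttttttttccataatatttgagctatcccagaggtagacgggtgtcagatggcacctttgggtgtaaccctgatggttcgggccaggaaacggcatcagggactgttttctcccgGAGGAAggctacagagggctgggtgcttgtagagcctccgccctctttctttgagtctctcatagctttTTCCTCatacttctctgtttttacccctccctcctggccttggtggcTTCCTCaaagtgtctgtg
The motif occurred in 28.3% of 32851 promoter windows of the same length. It occurred 1 time in C1qb, 1 time in C1qc on the reverse strand and 3 times in Itgam, with no match in these windows of C3ar1 and C3. A STAT motif, TTCNNNGAA, was in 8.3% of all windows and in none of the 5. A match describes letters and not binding. Spi1, which encodes PU.1, had a log2 fold change of -0.07 and did not pass the test (adjusted p = 0.820).

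C1qa, C1qb and C1qc encode the A, B and C chains, which assemble in equal numbers into C1q, the recognition molecule of the classical pathway. The genes (ENSMUSG00000036887, ENSMUSG00000036905 and ENSMUSG00000036896) form a cluster on the minus strand of GRCm38 chromosome 4, with C1qa from 136895917 to 136898803, C1qc from 136889804 to 136893065 and C1qb from 136880129 to 136886187. The gaps between neighbours are 2.85 and 3.62 kb.

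The level of C1qa ran from 26.9 to 45.4 CPM in Rik null brain (median 35.0) and from 19.4 to 54.2 CPM in WT brain (median 31.3). The WT values enclosed all the Rik null values, with WT replicates 1 and 6 at the ends. Means were 34.5 ± 6.09 CPM (SD, n = 7) and 33.8 ± 12.3 CPM (SD, n = 7), and the log2 fold change of C1qa was 0.03 (95% interval -0.33 to 0.39, adjusted p = 0.912, edgeR).

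For C1qb the range was 28.9 to 50.1 CPM in Rik null (median 36.8) and 25.4 to 49.97 CPM in WT brain (median 39.1). These ranges nearly coincided. The log2 fold change of C1qb was -0.05 (95% interval -0.34 to 0.23, adjusted p = 0.799, edgeR). C1qc ran from 26.9 to 51.4 CPM in Rik null (median 34.6) and from 19.0 to 39.0 CPM in WT brain (median 36.8), and only Rik null replicates 1 and 5 exceeded the highest WT library. Its log2 fold change was 0.25 (95% interval -0.07 to 0.56, adjusted p = 0.226, edgeR).

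Because the chains assemble in fixed proportion, the ratios between their transcripts were compared within each library, over 3 pairs. The C1qb to C1qc CPM ratio was 0.839 to 1.11 in Rik null and 1.06 to 1.45 in WT brain. The ranges overlapped between 1.06 and 1.11. The ratio was lower in Rik null brain by a log2 difference of -0.30, which passed an exact two-sided permutation test (p = 0.00408, Benjamini-Hochberg adjusted p = 0.0122 over 3 pairs). The C1qa to C1qb and C1qa to C1qc ratios had log2 differences of 0.13 and -0.17 and did not pass (adjusted p = 0.359 for each, exact permutation test). Without WT replicate 4 they were 0.04 and -0.28 (adjusted p = 0.714 and 0.0603, exact permutation test).

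The C1q genes were next compared with each other from library to library within a genotype. Over 7 libraries, C1qb and C1qc had a Pearson r of 0.934 in WT (Spearman rho 0.964, exact permutation p = 0.00337 and 0.00278) and 0.858 in Rik null brain (rho 0.750, p = 0.0171 and 0.0663). Without the 2 libraries farthest from the median, r was 0.837 and 0.923. Among the 56 relations between pairs of the 8 genes in the genotypes, none passed adjustment, and the adjusted p of these r values was 0.189 and 0.264.

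The levels of the C1q genes ran with those of ribosomal protein genes. The ribosomal protein score is the mean log2 CPM of 73 genes for proteins of the cytosolic ribosome relative to the mean of all libraries. It ran from -0.16 (replicate 3) to 0.50 (replicate 1) in Rik null and from -0.57 (replicate 6) to 0.23 (replicate 2) in WT brain. Over the deviations of 14 libraries from their genotype means, the score correlated with C1qa (r = 0.816, rho = 0.824), C1qb (r = 0.920, rho = 0.846) and C1qc (r = 0.944, rho = 0.912). The adjusted permutation p of r was 0.00156 for C1qa and 4.5e-05 for C1qb and C1qc, and that of rho was 0.00174, 0.000855 and 0.00018, over 9 relations. For these 2 genes the raw p of r was 1e-05, the smallest that 100000 resamples can give. Leaving out the 2 libraries farthest from the median score left r at 0.844, 0.858 and 0.900. For C3, C4b, C3ar1, Itgam and Serping1, r lay between -0.13 and 0.20 and rho between -0.12 and 0.27, with adjusted permutation p of at least 0.524. In Rik null and WT libraries taken apart, r was 0.73 and -0.08 for Serping1 and 0.54 and -0.26 for C4b. It was 0.52 and -0.14 for C3ar1, -0.29 and 0.67 for Itgam and -0.03 and -0.18 for C3, and these values were not tested. The C1qb to C1qc ratio had r = -0.32 and rho = -0.38 with the score (adjusted permutation p = 0.608 and 0.392).

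With the score as a covariate, an alternative chosen after seeing the data, C1qb was called lower in Rik null brain (log2 fold change -0.26, adjusted p = 0.00932, edgeR), whereas C1qa (-0.18, adjusted p = 0.220) and C1qc (-0.003, adjusted p = 0.981) did not pass. What sets the score in a library was not tested.

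**Figure D2:**
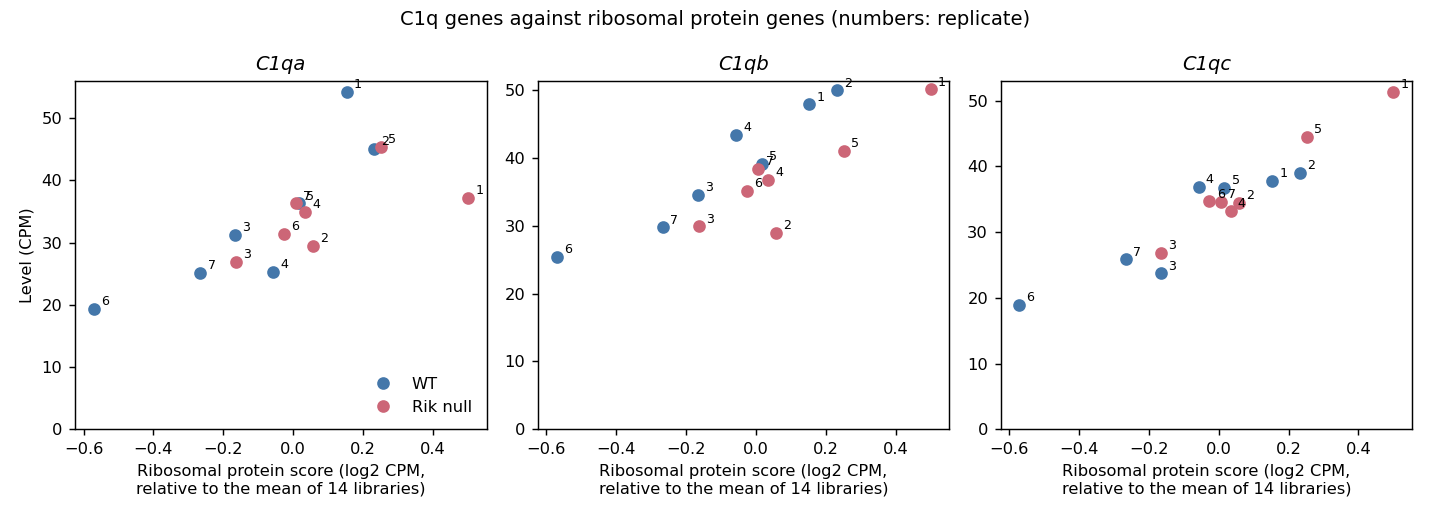
CPM of C1qa, C1qb and C1qc (y axis) against the ribosomal protein score in log2 CPM relative to the mean of 14 libraries (x axis), with 1 point per library, WT in blue, Rik null in red and replicate numbers beside the points. All 3 genes climb with the score in both genotypes, WT replicate 6 is lowest for each, and Rik null points for C1qb tend to lie below WT points of like score.

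C4b encodes complement component 4, which C1s cleaves and whose larger fragment binds covalently to surfaces. It was higher in Rik null brain. C4b (ENSMUSG00000073418) lies on the minus strand of GRCm38 chromosome 17 from 34728380 to 34743882. Its level ran from 20.8 to 33.6 CPM in Rik null (median 28.2) and from 15.1 to 22.7 CPM in WT brain (median 18.3). Only Rik null replicate 6 fell within the WT range, below WT replicate 5, and the other 6 Rik null libraries were above every WT library. The means were 28.1 ± 3.99 CPM (SD, n = 7) and 18.4 ± 2.65 CPM (SD, n = 7), and C4b rose 1.53-fold (log2 fold change 0.61, SE 0.10, 95% interval 0.39 to 0.83, adjusted p = 0.000128, edgeR). In females alone the log2 fold change was 0.47 and did not pass (adjusted p = 0.0692, edgeR), and in males it was 0.73 (adjusted p = 0.0010, edgeR).

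C4b lies 1.15 Mb from Rik, and its neighbours C4a, C2 and Cfb lie between 0.994 and 1.07 Mb from it. Of 112 tested genes within 2 Mb of Rik, 21 were higher and 15 lower, 32.1% against 34.4% of all tested genes, and their median log2 change was 0.07. The part of the chromosome carried with the null allele cannot be told apart from the allele itself. C4a, a near-identical copy of C4b 65.2 kb away that the annotation gives as a noncoding RNA, was also higher (log2 fold change 1.59, adjusted p = 0.0109, edgeR), at 0 to 26 counts per library. Reads of C4a and C4b may be divided between them in counting, but C4a took at most 4.77% of the counts of the pair in any library.

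C3 encodes the central component on which all complement pathways converge. It was scarce in these brains, with 6 to 28 counts per library. C3 (ENSMUSG00000024164) lies on the minus strand of GRCm38 chromosome 17 from 57203970 to 57228136, 21.3 Mb from Rik. Its level was 0.632 to 1.35 CPM in Rik null (median 0.995) and 0.387 to 1.85 CPM in WT brain (median 1.17). The WT libraries spanned a wider range at either end. The log2 fold change was -0.07 with a 95% interval of -0.75 to 0.60 (adjusted p = 0.884, edgeR), an interval that spans changes in either direction.

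C3ar1 encodes the receptor for C3a, the small fragment released when C3 is cleaved, and is carried by myeloid cells. It was the largest increase of the set. C3ar1 (ENSMUSG00000040552) lies on the minus strand of GRCm38 chromosome 6 from 122847138 to 122856161. Its level ran from 2.71 to 5.74 CPM in Rik null (median 5.20) and from 0.903 to 2.95 CPM in WT brain (median 1.98). Rik null replicates 2 and 3 were at 2.71 and 3.07 CPM, near WT replicate 5 at 2.95 CPM, and the other 5 Rik null libraries lay above 5 CPM. The means were 4.72 ± 1.28 CPM (SD, n = 7) and 1.97 ± 0.67 CPM (SD, n = 7), and C3ar1 rose 2.38-fold (log2 fold change 1.25, SE 0.23, 95% interval 0.77 to 1.74, adjusted p = 0.000293, edgeR).

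Itgam encodes CD11b, the alpha chain of complement receptor 3, an integrin through which microglia and other myeloid cells bind the C3 fragment iC3b. It fell, in the opposite direction to C3ar1. Itgam (ENSMUSG00000030786) lies on the plus strand of GRCm38 chromosome 7 from 128062640 to 128118491. Its level ran from 0.988 to 2.35 CPM in Rik null (median 1.89) and from 3.44 to 7.08 CPM in WT brain (median 5.90). Every Rik null library lay below every WT library. The means were 1.75 ± 0.48 CPM (SD, n = 7) and 5.65 ± 1.27 CPM (SD, n = 7), 3.23-fold lower in Rik null brain (log2 fold change -1.69, SE 0.20, 95% interval -2.11 to -1.27, adjusted p = 2.18e-06, edgeR). Among all genes, 7.03% were lower and 5.38% higher without overlap between the genotypes. In bulk brain, fewer cells of a type and less RNA per cell cannot be told apart.

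The partner of Itgam in complement receptor 3 is Itgb2, which encodes CD18. Itgb2 was at 3.57 to 4.50 CPM in Rik null and 2.13 to 5.35 CPM in WT brain, and its log2 fold change was 0.11 (95% interval -0.26 to 0.49, adjusted p = 0.663, edgeR). The Itgam to Itgb2 FPKM ratio, a pair chosen after its values were seen, was 0.167 to 0.395 in Rik null and 0.752 to 1.71 in WT brain.

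The other anaphylatoxin receptor, C5ar1, which binds C5a, rose with C3ar1. Its level was 0.877 to 2.74 CPM in Rik null (median 2.26) and 0.132 to 1.04 CPM in WT brain (median 0.439). The only overlap was Rik null replicate 3, which lay below WT replicate 1. The fold change of C5ar1 was 4.09 (log2 fold change 2.03, SE 0.35, adjusted p = 0.000149, edgeR). Its counts were low, at 16 to 50 per library in Rik null and 2 to 16 in WT brain. C5ar2, another C5a receptor, had a log2 fold change of 0.51 and did not pass (adjusted p = 0.456, edgeR).

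**Figure D3:**
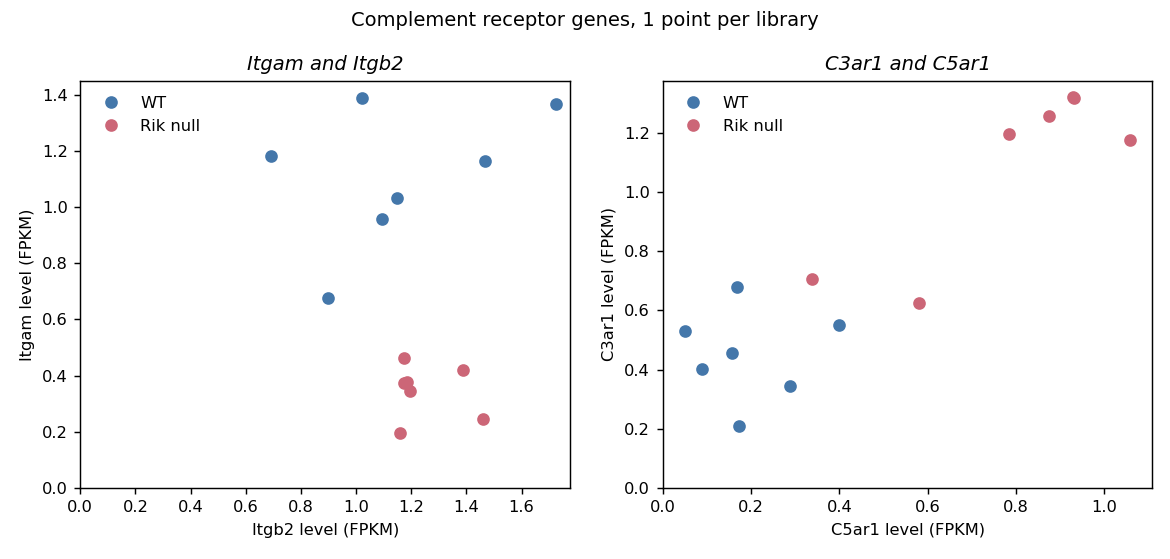
FPKM of Itgam against Itgb2 (left) and of C3ar1 against C5ar1 (right), with 1 point per library, WT in blue and Rik null in red. On the left the genotypes share a range of Itgb2 and separate on Itgam, at 0.195 to 0.463 FPKM in Rik null and 0.675 to 1.39 FPKM in WT brain, and on the right 5 Rik null libraries, 2 of them at nearly the same point, lie above all others on both axes.

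Serping1 encodes C1 inhibitor, a secreted protease inhibitor that inactivates C1r and C1s. It was higher in Rik null brain. Serping1 (ENSMUSG00000023224) lies on the minus strand of GRCm38 chromosome 2 from 84765387 to 84775444. Its level ran from 11.2 to 14.9 CPM in Rik null (median 12.5) and from 4.81 to 11.1 CPM in WT brain (median 8.53). The genotypes did not overlap, though the lowest Rik null library (replicate 2, 11.19 CPM) and the highest WT library (replicate 5, 11.11 CPM) were almost equal, and WT replicate 1 was the lowest. The means were 12.4 ± 1.21 CPM (SD, n = 7) and 8.41 ± 2.04 CPM (SD, n = 7), and Serping1 rose 1.48-fold (log2 fold change 0.56, SE 0.14, 95% interval 0.28 to 0.85, adjusted p = 0.00324, edgeR). In females alone the log2 fold change was the same, 0.56, but did not pass (adjusted p = 0.118, edgeR), and in males it was 0.53 (adjusted p = 0.0216, edgeR).

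C4b and Serping1 encode the substrate and the inhibitor of C1s. Their FPKM ratio was 0.747 to 1.13 in Rik null and 0.752 to 1.35 in WT brain, with overlapping ranges, in a pair chosen after the values were seen.

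The sexes were compared within the same libraries. No complement gene of the 8 had a genotype by sex interaction that passed the test, with adjusted p between 0.847 and 0.992 (edgeR). Itgam fell in females (log2 fold change -1.88, adjusted p = 0.0010, edgeR) and in males (-1.47, adjusted p = 0.00355, edgeR), and C3ar1 rose in females (1.20, adjusted p = 0.0362, edgeR) and in males (1.27, adjusted p = 0.0114, edgeR).

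The rest of the cascade was examined with a list of 51 other complement genes, of which 30 passed the count filter. Of these, 7 were higher, 4 were lower and 19 did not pass, so 36.7% were called against 34.4% of all genes, and their median log2 fold change was 0.01. In the classical and lectin pathways, 4 of 7 tested genes were higher and 1 was lower, beside 16.5% and 17.9% of all tested genes. Those higher were C1ra, which encodes the protease C1r (log2 fold change 1.12, adjusted p = 0.0241, edgeR), C4a, and the collectins Colec11 (0.88, adjusted p = 0.0201, edgeR) and Colec12 (0.32, adjusted p = 0.0339, edgeR). Counts per library were low for C1ra, at 11 to 38 in Rik null and 3 to 21 in WT brain. They were also low for Colec11, at 14 to 30 in Rik null and 7 to 22 in WT brain. Masp1, a protease of the lectin pathway, was lower (-0.45, adjusted p = 0.00153, edgeR). C2 and C1s1 had log2 fold changes of 0.87 and -0.66 and did not pass (adjusted p = 0.0643 and 0.214, edgeR).

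Downstream of C3, 1 of 2 tested terminal components, C7, was higher (log2 fold change 1.15, adjusted p = 0.0244, edgeR). Its counts were low, at 11 to 28 per library in Rik null and 2 to 14 in WT brain. The only alternative pathway gene tested, Cfp (properdin), did not pass (-0.21, adjusted p = 0.404, edgeR). Among the receptors other than those described above, Cd93, once named as a C1q receptor, was higher (0.43, adjusted p = 0.00721, edgeR). Calr, an endoplasmic reticulum chaperone that also binds C1q, was lower with no overlap, at 140 to 194 CPM in Rik null and 267 to 341 CPM in WT brain (log2 fold change -0.77, adjusted p = 2.35e-07, edgeR).

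Of 14 tested regulators, none was higher and 2 were lower, 14.3% called beside 34.4% of all tested genes and 17.9% of them lower. Serping1, a regulator counted among the 8 genes and not in this list, was higher (log2 fold change 0.56, adjusted p = 0.00324, edgeR). Those lower were Cd55 and Cd59a. Cd46, Cd59b and Cr1l of the same list did not pass (log2 fold change 0.15, 0.22 and -0.16, adjusted p = 0.566, 0.706 and 0.167, edgeR). Cd55, which speeds decay of the C3-cleaving enzymes, fell by 0.46 on the log2 scale (adjusted p = 0.0109, edgeR). Cd59a, which blocks the membrane attack complex, was at 5.81 to 11.6 CPM in Rik null and 9.48 to 18.3 CPM in WT brain (log2 fold change -0.73, adjusted p = 0.00148, edgeR). Clu (clusterin), an abundant regulator of the terminal pathway, had a log2 fold change of -0.01 and did not pass (adjusted p = 0.927, edgeR).

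Several components were at or near the floor of detection. C1rb, Mbl1, Fcnb and C9 had no count in any library, which allows up to 3 counts in each, and Mbl2, C6 and Cd55b had at most 3. Cfb, whose product forms the alternative pathway enzyme with C3b, and Cfd, which encodes the protease that cleaves it, had at most 7 counts in any library and were not tested.

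Markers of the cells that express these genes moved between the genotypes too, and their part in the complement results was not tested. The counts of markers here and in the next paragraph stand beside 16.5% of all tested genes higher and 17.9% lower. Of 22 microglia markers, 13 were lower and none higher, at a median of -0.47 on the log2 scale, and the markers summed to 317 to 378 CPM in Rik null against 437 to 567 CPM in WT brain. Fcrls (-2.01), P2ry12 (-1.40), Selplg (-1.21) and Csf1r (-0.63) had the smallest p of these. With the replicate block, 1 of the 22 was higher and 13 were lower. Of 13 tested markers of activated microglia, 6 were higher and 1 was lower (2621 to 3743 against 1806 to 2964 CPM), among them Clec7a (1.87), Lgals3 (1.47) and Cd68 (0.61). The number higher was 3 without Rik null replicate 1 and WT replicate 4 together, 2 in females and 1 in males. The lower call was lost with library size alone, with no filter beyond 1 count, in males and in the same joint omission. It was also lost when Rik null replicate 1, 2, 3, 6 or 7 or WT replicate 1, 2, 3, 4 or 5 was left out. Of 8 tested perivascular macrophage markers, 1 was lower and none higher (54.2 to 65.6 against 58.1 to 81.3 CPM). Library size alone gave 1 higher and 0 lower. With no filter beyond 1 count, sex as a covariate, the replicate block or the same joint omission, 2 were lower. The same number was lower when Rik null replicate 1, 5 or 7 or WT replicate 1 or 2 was left out, and without WT replicate 1 there was also 1 higher.

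For glia and the other cells that make C4b and Serping1, 9 of 13 tested reactive astrocyte markers were higher and none lower (417 to 688 CPM in Rik null against 410 to 549 CPM in WT brain), led by Cp (1.02), Serpina3n (1.13), Osmr (1.495) and Steap4 (2.47). In females alone 4 were higher and 1 was lower. Of 12 astrocyte markers, 1 was higher and 7 were lower (5656 to 6428 against 6822 to 8387 CPM). Of 12 fibroblast and meningeal markers, 2 were higher and 5 lower, and their summed level of 1189 to 1773 against 569 to 941 CPM was mostly Ptgds (1.05). Blood and liver plasma protein markers had 5 of 7 tested genes lower and none higher. Of this list, Fgb was at 0 and Alb, Fga and Fgg had no more than 3 counts in any library, and were not tested. These are transcript counts, and complement protein carried in blood was not measured.

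Set against the microglia markers, the 8 genes took other positions than against total counts. Relative to the mean log2 CPM of the 22 markers in the same library, the mean difference between Rik null and WT brain was 0.65 for C1qa, 0.52 for C1qb, 0.82 for C1qc, 0.58 for C3, 1.16 for C4b, 1.78 for C3ar1, 1.15 for Serping1 and -1.08 for Itgam. The markers were themselves lower in Rik null brain (median log2 fold change -0.47), which raises all 8 differences, so genes that changed little come out above 0. Itgam was the only complement gene of the 8 whose log2 level was lower than that mean would give, a description with no test.

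The genes most alike to each complement gene were sought by Pearson r of deviations from the genotype means of log2 CPM over 14 libraries, among 15620 genes of at least 1 CPM on average. C1qa lay nearest to Arl3 (0.976), Micos13 (0.964) and Atp5o (0.958), C1qb to Gna11 (0.967), Mrps24 (0.967) and Epn1 (0.966), and C1qc to Gm11808 (0.958), Psd (0.955) and Rpl18 (0.953). None of these genes is on the microglia marker list. C4b lay nearest to Aqp4 (0.863), the water channel of astrocytes, which itself was lower in Rik null brain (log2 fold change -0.82, adjusted p = 6.64e-08, edgeR). C3ar1 lay nearest to 1700017B05Rik (0.881) and Gbp3 (0.843), with the perivascular macrophage marker F13a1 in the next place (0.818). Itgam lay nearest to Cd300c2 (0.857), Serping1 to Mterf3 (0.905), and C3 to Mctp2 (0.861). The libraries, their depth and their scaling are shared by all genes in these comparisons.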

How the data were processed

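For each gene and library the authors deposited a raw read count and an FPKM value, together with signal columns that hold the mean normalized count of each genotype and the log2 fold changes and p-values of their own DESeq2 comparison, which were not used. The deposited FPKM values served only for levels between genes. RNA was extracted from brains kept in RNAlater and sequenced by a commercial provider. The build was GRCm38 per the processing notes, and for the aligner, counting tool, strand setting and RNA selection the answer is not given in the sources used here. Positions are from GENCODE M21 by gene identifier.

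The test of genotype alone was run on counts in edgeR 4.0.16 (R 4.3.3), two-sided, with default glmQLFit and glmQLFTest, TMM scaling and filterByExpr, and it was checked on simulated counts. The common biological coefficient of variation was 14.3%. CPM are relative to TMM-scaled totals, and a count of 0 allows up to 3 counts. Ratios and correlations within a genotype used exact permutation tests, and correlations over 14 libraries 100000 resamples, in numpy 2.4.6 and scipy 1.17.1. Within a genotype, any pair of libraries differed by more than sampling noise (chi-square over its degrees of freedom at least 4.47), and each was a replicate. Labels name no batch or litter, so neither could be separated from genotype, and the p-values treat the animals as independent.

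The 8 genes and all lists were chosen with earlier results of these data known. Genes named were the 8, Rik, complement genes past the threshold or undetected, up to 4 genes of smallest p per marker list, and the 3 genes most alike to each of the 8, with further members of the lists named after their values were seen. The list counts include 1 gene whose own result was left out and is not reported here. Alternatives were DESeq2 1.42.0, RLE factors, scaling by library size, exclusion of mitochondrial genes, other filters, the robust option, sex or the ribosomal score as a covariate, the replicate block, each library or Rik null replicate 1 with WT replicate 4 left out, and each sex alone.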

Additional observations from a re-analysis of the deposited data

Results flagged for a closer look

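The Serping1 level of Rik null replicate 1 (14.9 CPM) stood apart from the other 6 Rik null libraries (11.2 to 12.6 CPM), with a gap to the next library of 0.607 of the whole range, more than the Dixon critical value for 7 samples. It was the only such library among 16 groups of values screened, where chance gives about 1 in 20. Without it the log2 fold change of Serping1 was 0.52 (adjusted p = 0.00717, edgeR).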

How the results depend on the processing

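Across 27 alternatives the log2 fold change of C3ar1 lay between 1.07 and 1.38 and that of Itgam between -1.88 and -1.47, all past the threshold. C4b (0.47 to 0.73) and Serping1 (0.46 to 0.64) kept their direction and were past it in 26 of 27. Both missed it in females alone, at 0.47 (adjusted p = 0.0692) and 0.56 (adjusted p = 0.118, edgeR), where the fit had 7 libraries and 1 of the 8 genes, C3ar1, was called higher. Over all genes, females alone gave 1282 higher and 1592 lower, and males alone 1241 and 1496. Among the other complement genes, males alone gave 2 higher and 2 lower, and the filter of 1 CPM in 7 libraries, which tests fewer genes, 4 higher. With the ribosomal score as a covariate, chosen after seeing the data, C1qb was at -0.26 and 2 of the 8 genes were lower, and the cause was not tested. Leaving out each library in turn gave 0.57 to 0.68 for C4b, 1.13 to 1.38 for C3ar1, -1.78 to -1.59 for Itgam and 0.46 to 0.64 for Serping1, with 3 of the 8 genes higher and 1 lower each time. The log2 ratio differences were then -0.34 to -0.26 for C1qb to C1qc, 0.04 to 0.20 for C1qa to C1qb and -0.28 to -0.10 for C1qa to C1qc. The same 3 and 1 were counted without Rik null replicate 1 and WT replicate 4 together. The labels give no pairing by replicate number. The r of same-numbered deviations was -0.0646 to 0.141, best with the own number in 3 of 7, which cannot show whether same-numbered animals shared a litter. With the replicate block Itgam was at -1.70, C4b at 0.61, C3ar1 at 1.26 and Serping1 at 0.59, with no call among the 8 changed. No alternative moved the median of all genes by more than 0.07. C3, at 6 to 28 counts per library, had the widest interval of the 8.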
